A study of Bos taurus with 64 samples.

Results

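NOL6 and IMP3 are proteins of the nucleolus that act in the making of the small ribosomal subunit, and their transcripts were followed in 2 muscles of cows that differed in stress before slaughter and in diet. The transcripts were read by 7 of the 13285 probes of the array, which belong to 3 of its 5449 transcripts: 1 probe named NOL6, 1 probe named IMP3, and the 5 probes of the custom set Target1180, which has no gene name but shares bases with the NOL6 probe. The names were those of the array files, and control features were left out. NOL6, Target1180 and IMP3 were chosen on values of these same arrays, namely their lower level in the LT of stressed cows and, for NOL6 and Target1180, their lower level in the ST of cows on the EP diet. Those contrasts are therefore given as a description with no test. As LT and ST come from the same cows, the stress contrast of the ST and the diet contrast of the LT are not independent of that choice either, and the differences of those contrasts between the muscles contain it. The contrasts within 1 diet or 1 stress group, the interaction of stress and diet, and the muscle difference also use these arrays. Their intervals and p-values are therefore not independent of the choice.

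Gene expression was measured with single-colour Agilent arrays in the m. longissimus thoracis (LT), a muscle of the back, and the m. semitendinosus (ST), a muscle of the hind limb, of 32 Normand cows. The 64 arrays are 1 per muscle and cow, and the separate cows are the replicates. Each of the 4 groups held 8 cows: limited stress or stress (called moderated stress in the labels), each on the control diet or on the EP diet. All cows were 4.5 ± 0.1 years old and were finished for 101 ± 3 days on straw and concentrate with 40 g of lipids per kg of dry matter from extruded linseed and rapeseed. The control diet was this lipid-rich ration, and the EP diet was the same ration with vitamin E and a mixture of plant extracts rich in polyphenols. The stressed cows were isolated from other cows in the lorry and spent 30 minutes in a labyrinth on an unfamiliar farm, whereas the other cows were handled with limited stress. The muscles were taken within 15 minutes after slaughter, and no group was without the lipids.

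A ribosome is built in the nucleolus, where RNA polymerase I makes a long precursor RNA that is folded, modified and cut into the ribosomal RNAs. The first steps toward the small subunit run on the small subunit (SSU) processome, a large particle that forms on the precursor around the U3 small nucleolar RNA. IMP3 is a protein of this particle that binds the U3 RNA and helps it to pair with the precursor, and NOL6 is another of its proteins, which joins it as part of a smaller module. In muscle, ribosome content bears on how much protein a fibre can make, and ribosome production is known to respond to loading and feeding.

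The array probes are 60 bases long, and 30 bases of each are shown because the shared bases tie the custom sets to the named genes. Capitals mark bases that the probe shares with another probe of the same block of lines. The NOL6 probe lies on chromosome 8 (HGSC Btau_3.1, chr8:79352727-79352786, minus strand), at base 4471 of the NOL6 transcript, and 55 of its bases are also in the first probe of Target1180. No run of 25 bases or more was shared with the other Target1180 probes, which read other stretches.
NOL6, bases 1 to 30: CACAGTCACGTACAGTGGCATAAACTCTTC
Target1180 CUST_4761, bases 2 to 31: tcttCACAGTCACGTACAGTGGCATAAACT
Target1180 CUST_4762, bases 1 to 30: tgccctcagcctaaggtgctcttcctctga
Target1180 CUST_4763, bases 1 to 30: taatcctggctgtttttccagattcagctc
Target1180 CUST_4764, bases 1 to 30: caaaaagcactgaatgctgccttggcctct
Target1180 CUST_4765, bases 1 to 30: ttgtgttggttccgctgcttcccagggtgg

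The IMP3 probe lies on chromosome 21 (HGSC Btau_3.1, chr21:33247358-33247417, plus strand), at base 1008 of the IMP3 transcript. It shares 49 bases with 1 probe of each of the custom sets Target844 and Target845, which are not among the 3 transcripts. Those 2 custom probes have the same sequence.
IMP3, bases 8 to 37: ttctGTTGTTTAAAGGAATGCTTTCCTAAT
Target844 CUST_7665 and Target845 CUST_7659, bases 1 to 30: GTTGTTTAAAGGAATGCTTTCCTAATGCCA

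Both named probes hold the letters of a poly(A) signal on their own strand, AATAAA at bases 41 to 46 of the IMP3 probe and ATTAAA at bases 53 to 58 of the NOL6 probe, with no overlap of the motifs. The 5 Target1180 probes hold neither on either strand. On the probe's own strand AATAAA was found in 9.9% and ATTAAA in 3.2% of the 13285 probes, and on the opposite strand in 3.5% and 2.3%. Whether the probes lie in coding or untranslated sequence is not given in the sources used here. A table of RefSeq genes (assembly ARS-UCD2.0) pairs the accessions of the named probes with the symbols NOL6 and IMP3.

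All 7 probes were well above background on all 64 arrays and none was saturated, so all passed the filter on dim probes in both muscles. Values are log2 ratios of the processed signal to the 75th percentile of the same array, so that a value of 0 is a spot as bright as that percentile. The percentile itself ran from 2470 to 4202 units over the arrays. Before scaling, the NOL6 signal had a median of 313.1 units in the LT and 313.8 units in the ST, and the IMP3 signal 1833 and 1839 units. Of 14 skeletal muscle genes looked for, 10 were on the array, among them ACTA1, CKM and DES. They were read by 66 probes that all passed the filter. In whole muscle, fewer cells of a type and less RNA per cell cannot be told apart.

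A total of 4 probes of Target844 are printed again in Target845 with the same sequence, and over the 64 arrays the log2 values of such a pair differed with an SD of 0.05 to 0.07. Both spots of a pair lie on the same array, so this SD leaves out differences between arrays, which the SD between cows holds. The median signals of these probes ran from 525.5 to 2449 units, above that of NOL6. The SD between the 8 cows of a group was 0.09 to 0.46 for NOL6 and 0.18 to 0.52 for IMP3.

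NOL6, a protein of the SSU processome, was lowest in the stressed cows on the EP diet. In the LT the NOL6 value ranged from −3.67 to −3.02 in cows with limited stress on the control diet (median −3.39), and from −3.64 to −3.08 in those on the EP diet (median −3.45). In stressed cows on the control diet it ranged from −3.57 to −3.28 (median −3.40), within the range of both limited stress groups. In stressed cows on the EP diet it ranged from −4.68 to −3.38 (median −3.90), and 5 of these 8 cows lay below every one of the other 24 cows, while 3 overlapped with them. The SD of this group was 0.46, beside 0.09 to 0.23 in the other groups.

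The ST of the same cows gave the same order at a smaller size. NOL6 in the ST ranged from −3.70 to −2.93 with limited stress and control diet (median −3.22), and from −3.66 to −3.01 with limited stress and EP diet (median −3.36). It ranged from −3.38 to −2.97 in stressed cows on the control diet (median −3.23) and from −3.99 to −3.34 in stressed cows on the EP diet (median −3.63). Here 3 of the 8 stressed cows on the EP diet lay below the other 24 cows, and all 8 lay below the median of the others. The cows labelled cow330, cow324 and cow251, all stressed and on the EP diet, held ranks 1, 2 and 3 from the lowest in both muscles, at −4.68, −4.29 and −4.16 in the LT and −3.99, −3.71 and −3.71 in the ST.

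**Figure D1:**
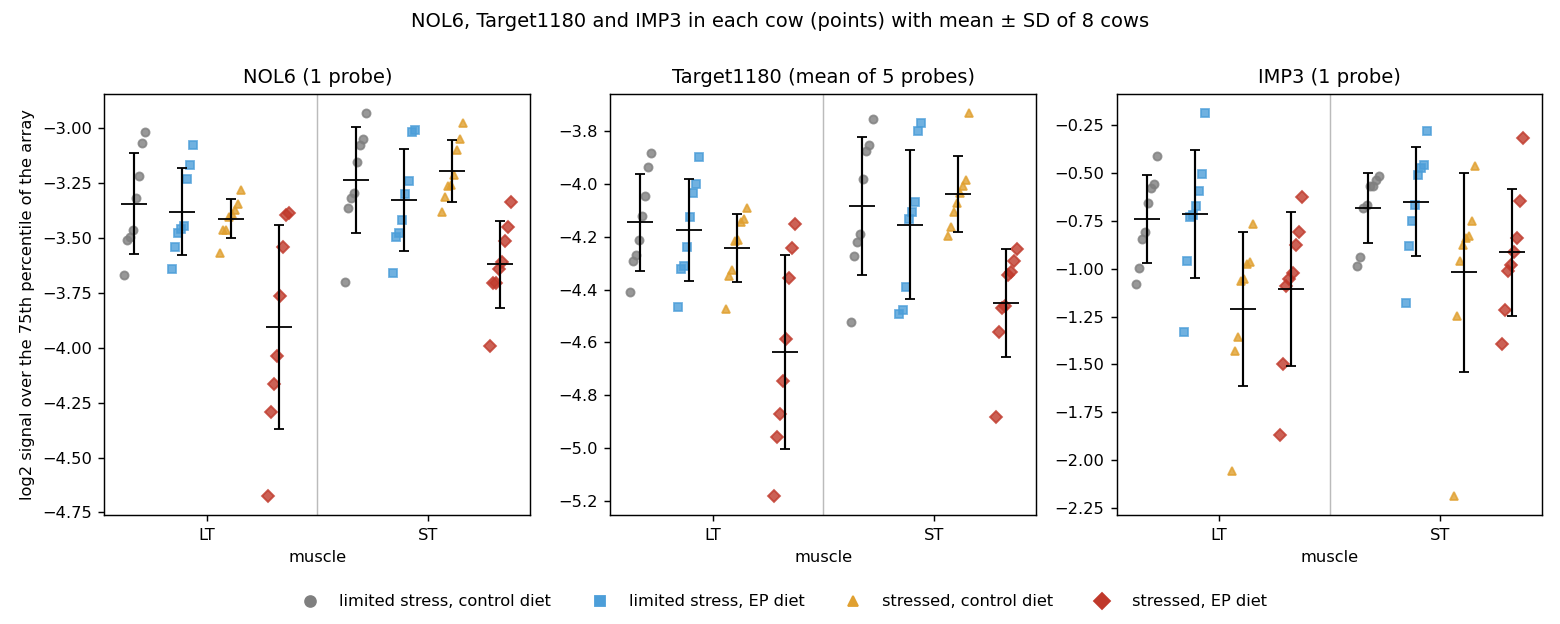
Each point is the log2 signal over the 75th percentile of the array in 1 cow, for NOL6, the mean of the 5 Target1180 probes and IMP3 in the LT and the ST; bars are the mean ± SD of 8 cows, and the levels of different panels are not comparable. The stressed cows on the EP diet reach −4.68 for NOL6 in the LT, whereas the median of IMP3 is lower in the stressed cows of both diets.

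Target1180, which reads the NOL6 stretch and 4 others, followed the NOL6 probe. Within groups, the correlation of NOL6 with the first Target1180 probe was 0.96 in the LT and 0.97 in the ST over 32 cows, which describes probes that share 55 bases. With the probes that share no such run it was between 0.80 and 0.92 on the same arrays, leaving out the 2 pairs with an omitted spot. The mean of the 5 probes was between −5.18 and −4.15 in the LT of stressed cows on the EP diet (median −4.67). The other LT groups together ranged from −4.47 to −3.88, and 5 of the 8 stressed cows on the EP diet were below all of them. In the ST the range was −4.88 to −4.25 in stressed cows on the EP diet and −4.20 to −3.73 in stressed cows on the control diet. These groups of 8 did not overlap, which held for 0.0291% of the single probes tested in the ST, but the diet difference of the ST was among the values that Target1180 was chosen on, and nothing is read from it.

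IMP3, which binds the U3 RNA, had lower medians in stressed cows on both diets. In the LT the IMP3 value ranged from −1.08 to −0.41 (median −0.73) with limited stress on the control diet, and from −1.33 to −0.19 (median −0.70) on the EP diet. In stressed cows it ranged from −2.05 to −0.77 (median −1.06) on the control diet and from −1.87 to −0.63 (median −1.04) on the EP diet. The groups overlapped on each diet, but 15 of the 16 stressed cows had a value under the median of the 16 cows with limited stress, and 5 lay below all of those.

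In the ST the IMP3 value ranged from −0.99 to −0.51 (median −0.62) with limited stress on the control diet, and from −1.18 to −0.28 (median −0.59) on the EP diet. It ranged from −2.19 to −0.47 (median −0.86) in stressed cows on the control diet and from −1.39 to −0.32 (median −0.95) in those on the EP diet. The groups overlapped here too. A stressed cow on the control diet, cow321, was lowest in both muscles, at −2.05 in the LT and −2.19 in the ST, and cow299, stressed and on the EP diet, was next in both, at −1.87 and −1.39.

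The stress difference in the LT, stressed minus limited stress over both diets, was −0.43 for IMP3 (SE 0.121, a ratio of 0.742), −0.30 for NOL6 (SE 0.0987, a ratio of 0.814) and −0.26 to −0.30 for the 5 Target1180 probes. A call for a transcript needed 80% or more of its probes to pass a limma adjusted p of 0.1, all with the same sign. By this rule 1 of the 3 transcripts, IMP3, was called lower, where 1.53% of the 4311 transcripts of the LT were called lower and 2.2% higher. With the cow as a block in a fit of both muscles, all 3 were called lower, against 3.02% of the transcripts. Nothing is read from these counts, because the transcripts were chosen on this contrast.

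By diet, the NOL6 stress difference in the LT was −0.53 (SE 0.140, a ratio of 0.693) with the EP diet and −0.07 (SE 0.140, a ratio of 0.955) with the control diet. NOL6 alone of the 3 was called lower with the EP diet, beside 0.325% of the LT transcripts, again as a description. The Target1180 probes gave −0.43 to −0.53 with the EP diet and −0.07 to −0.15 with the control diet. For IMP3 the values were −0.39 (SE 0.171) with the EP diet and −0.47 (SE 0.171) with the control diet.

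**Figure D2:**
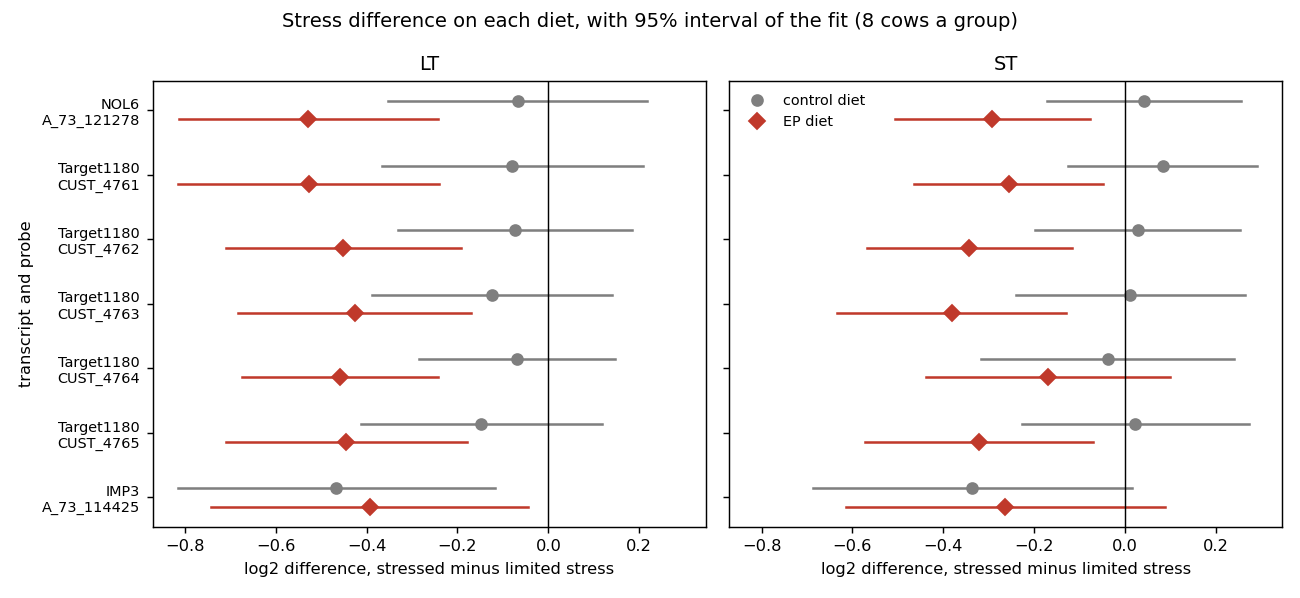
The horizontal axis is the log2 difference between stressed cows and cows with limited stress on each diet (control and EP, by symbol), with 95% intervals of the fit, for each of the 7 probes in the LT and the ST. The NOL6 difference is −0.53 with the EP diet and −0.07 with the control diet in the LT, and −0.29 and 0.04 in the ST, while the IMP3 values of both diets lie close together.

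For stress in the ST, none of the 3 transcripts passed the test. IMP3 had a log2 difference of −0.30 (SE 0.122, 95% interval −0.55 to −0.05, a ratio of 0.812, limma adjusted p = 0.191, unadjusted 0.0193), and 14 of 16 stressed cows had a value under the median of the cows with limited stress. NOL6 had −0.13 (interval −0.28 to 0.03, limma adjusted p = 0.380) and the Target1180 probes had −0.09 to −0.19 (limma adjusted p from 0.267 to 0.596). In this comparison 2.12% of the 4246 transcripts were called lower and 1.48% higher, and 17.4% of the probes had an unadjusted p under 0.05, among them IMP3 and 1 Target1180 probe. The count of 0 does not show that stress made no difference, as the interval of IMP3 holds its LT value of −0.43. That of NOL6 ends at −0.28, just short of its LT value of −0.30.

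The stressed cows on the control diet were on only 2 of the 5 ST slides, 3 on slide 3 and 5 on slide 9. With the slide as a block, the stress difference of the ST was 0.01 for NOL6 and −0.20 for IMP3 (limma adjusted p = 0.979 and 0.604), and without cow321 it was −0.22 for IMP3 (limma adjusted p = 0.248). With the EP diet alone NOL6 had −0.29 in the ST (SE 0.105, interval −0.51 to −0.08, limma adjusted p = 0.513, unadjusted 0.0090), and with the control diet 0.04 (interval −0.17 to 0.25, limma adjusted p = 0.885). The corresponding values of IMP3 were −0.26 and −0.34, with limma adjusted p of 0.899 and 0.312. The NOL6 values by diet are a description, as the same ST arrays made the diet difference that NOL6 was chosen on.

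Whether the stress difference depended on diet was tested as the interaction, the stress difference with the EP diet minus that with the control diet. For NOL6 it was −0.46 in the LT (SE 0.197, interval −0.86 to −0.06, limma adjusted p = 0.9999, unadjusted 0.0261) and −0.33 in the ST (SE 0.148, interval −0.64 to −0.03, limma adjusted p = 0.969, unadjusted 0.0318). The Target1180 probes had −0.30 to −0.45 in the LT and −0.13 to −0.39 in the ST. For IMP3 it was 0.07 in both muscles, with intervals of −0.42 to 0.57.

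None of these interactions passed the limma test after adjustment over all probes, and no transcript of the array was called for it (LT, 0 of 4311, and ST, 0 of 4246). An unadjusted p under 0.05 was found for 2.64% of the LT probes and 4.76% of the ST probes, and in each muscle NOL6 and 3 of the 5 Target1180 probes were among them. When the LT and ST values of each cow were averaged, a step added after the data were seen, the NOL6 interaction was −0.40 over 32 cows (limma adjusted p = 0.992, unadjusted 0.0162). Without cow330 the NOL6 interaction was −0.35 in the LT and −0.28 in the ST, with unadjusted values of 0.0510 and 0.0613.

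The diet contrast showed the same cows from the other side. In the LT, the EP diet minus the control diet gave −0.27 for NOL6 (SE 0.0987, interval −0.47 to −0.06, a ratio of 0.832, limma adjusted p = 0.979, unadjusted 0.0115) and −0.20 to −0.22 for Target1180. IMP3 had 0.07 (interval −0.18 to 0.31, limma adjusted p = 0.999). No transcript was called for diet in the LT with limma (0 of 4311), and 3.9% of the 10441 probes had an unadjusted p under 0.05, all 6 probes of NOL6 and Target1180 among them.

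Within the stressed cows the LT diet difference of NOL6 was −0.50 (SE 0.140, interval −0.78 to −0.21, a ratio of 0.709, limma adjusted p = 0.658, unadjusted 0.00125), and 5 of the 8 stressed cows on the EP diet lay below all stressed cows on the control diet. These values are a description, as the LT arrays of the stressed cows made the stress difference that NOL6 was chosen on. Here too 0 of the 4311 transcripts were called with limma, and 7.31% of the probes had an unadjusted p under 0.05. Within the cows with limited stress the NOL6 difference was −0.03 (interval −0.32 to 0.25). In the ST, given as a description, the diet difference was −0.26 (SE 0.0741) for NOL6, −0.19 to −0.26 for Target1180 and 0.07 (SE 0.122) for IMP3. For NOL6 it was −0.43 in the stressed cows and −0.09 in the cows with limited stress.

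The order of the groups was also compared within each array slide, since the groups were not evenly spread over the slides. As NOL6 and IMP3 were chosen on contrasts of these same arrays, this order is a description with no test. A slide held only 1 or 2 stressed cows on the EP diet. For NOL6 the stressed cows on the EP diet had a lower mean than the other cows on 4 of 4 LT slides, by −0.98 to −0.09, and on 5 of 5 ST slides, by −0.70 to −0.15. They were below the stressed cows on the control diet on 3 of 3 LT slides and 2 of 2 ST slides that held both. Against limited stress on the EP diet they were lower on every slide except slide 3 of the ST, where they were 0.17 higher. For NOL6, the stressed cows of both diets together were lower than the cows with limited stress on 3 of 4 LT slides (−0.48 to 0.08). On the ST slides this held for 3 of 5 (−0.59 to 0.32). The slide means of NOL6 lay between −3.75 and −3.36 in the LT and between −3.45 and −3.24 in the ST. When the slide was a block the NOL6 interaction was −0.46 in the LT and −0.52 in the ST (limma adjusted p = 0.9998 and 0.793). For IMP3, the stressed cows had a lower mean than the cows with limited stress on 4 of 4 LT slides, by −0.65 to −0.18, and on 4 of 5 ST slides, with slide 9 as the exception (0.14 higher).

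**Figure D3:**
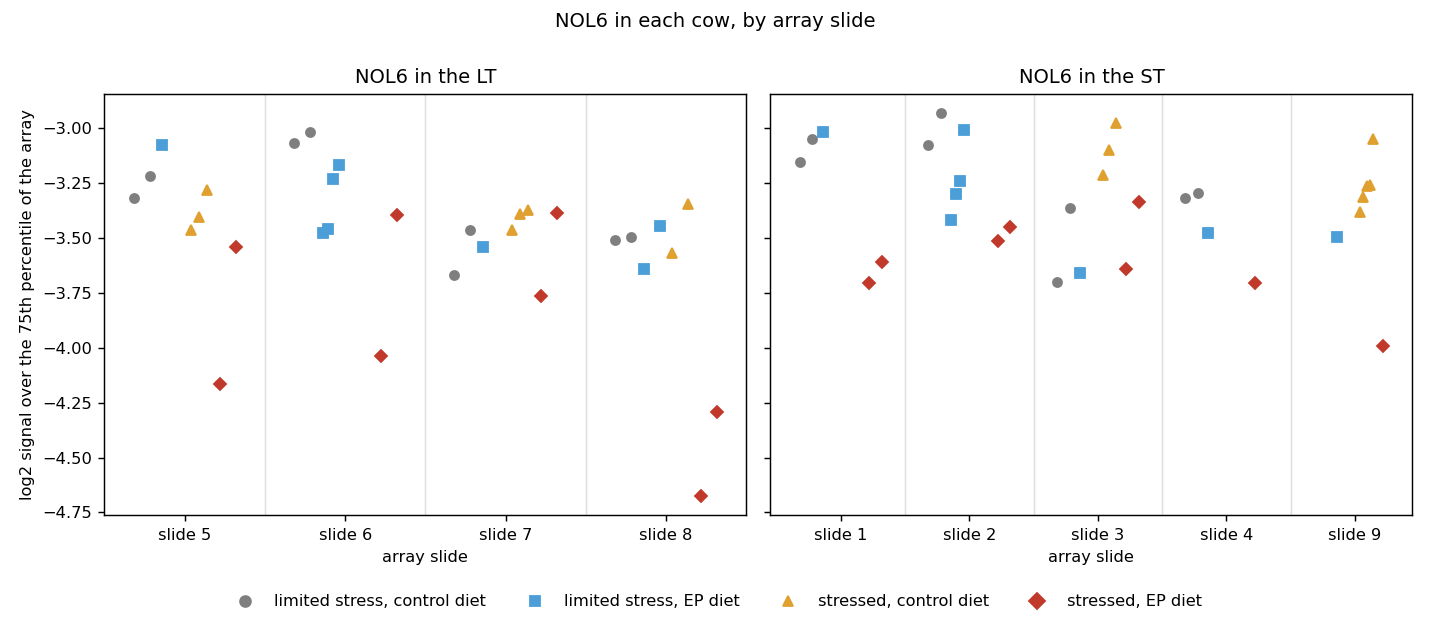
NOL6 in each cow as log2 signal over the 75th percentile of the array, by array slide, for the LT (4 slides) and the ST (5 slides); symbols give the group. The stressed cows on the EP diet, 1 or 2 per slide, have a lower mean than the other cows on every slide, by −0.09 on slide 7 up to −0.98 on slide 8. NOL6 was chosen on these arrays, so this is a description.

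Markers of other cells were set beside this pattern. The 10 fat transcripts, among them those of ADIPOQ and FABP4, were read by 27 probes, of which 26 passed the filter (LEP did not). Their mean log2 value was higher with the EP diet in the LT (0.40) and the ST (0.66), and their interaction of stress and diet was 0.71 and 0.12. Their summed level in the LT, in percent of the 75th percentile, ranged from 366 to 1593 in stressed cows on the EP diet, from 309 to 908 in stressed cows on the control diet, and from 285.96 to 1539 and 389 to 902 in the limited stress groups on the EP and the control diet. In the ST the ranges were 516 to 1856, 364 to 805, 491 to 2419 and 547 to 1442 in the same order. The groups overlapped in both muscles.

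For the 10 fibroblast transcripts, with 26 of 27 probes past the filter (PDGFRA was not), the interaction was 0.34 in the LT and 0.53 in the ST. Their summed level in stressed cows on the EP diet ranged from 494 to 1108 in the LT and from 433 to 2377 in the ST, and over the other groups from 240 to 1388 and from 291 to 1857. Within groups, the correlation of NOL6 over 32 cows was −0.14 and −0.16 with the fat genes and −0.05 and −0.02 with the fibroblast genes in the LT and the ST. Of the 9 marker lists the white cell list had the r farthest from 0, at −0.48 in the LT and −0.28 in the ST, and its interaction was 0.28 and −0.36. It held 2 transcripts, of which 1 passed the filter (ITGAM did not), and its summed level was only 2.03% to 9.53% of the 75th percentile in the LT and 2.66% to 10.3% in the ST. The skeletal muscle list had stress and diet differences between −0.06 and 0.02. The fibre lists differed more with diet in the ST, by −0.23 for the slow fibre list and 0.17 for the fast fibre list. In the LT their diet differences were 0.05 and 0.01. The interaction of stress and diet was 0.19 (LT) and 0.07 (ST) for slow fibres, and 0.10 and 0.04 for fast fibres.

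Beside IMP3, the stress difference of the fat list was −0.11 in the LT and −0.43 in the ST, and its correlation with IMP3 within groups was 0.14 and 0.05. The endothelial list, a single transcript, had an r of −0.37 and −0.28 with IMP3 and stress differences of 0.01 and 0.05. The blood list, with 4 transcripts of which 2 (LT) and 1 (ST) passed the filter, had interactions of 0.47 (LT) and 0.32 (ST). That of the nerve list, a single transcript at 0.163% to 1.78% of the 75th percentile, was 0.45 and −1.10. The part of these cells in the values of NOL6 and IMP3 was not tested.

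The level of a cow in one muscle was set beside its level in the other. After subtracting the group means, LT and ST values correlated over the 32 cows with r = 0.65 and rho = 0.69 for NOL6 (permutation p adjusted over 5 relations 0.0002 and 0.0001), and with r = 0.64 and rho = 0.66 for Target1180 (adjusted permutation p = 0.000217 and 0.000225). Without the 2 cows farthest from the LT median, r was 0.66 for NOL6 and 0.59 for Target1180 (adjusted permutation p = 0.00045 and 0.0014). For IMP3, r was 0.66 and rho 0.41 (adjusted permutation p = 0.000217 and 0.0312), and without the 2 farthest cows, cow321 among them, r was 0.43 (adjusted permutation p = 0.0282). With slide means also removed, r was 0.52 for NOL6, 0.54 for Target1180 and 0.80 for IMP3 (adjusted permutation p = 0.00365, 0.00365 and 5e-05).

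For NOL6 and IMP3 within 1 muscle, no correlation past the threshold was found. Their r was 0.14 in the LT and −0.17 in the ST (rho 0.15 and −0.13, adjusted permutation p for r of 0.454 and 0.446). It was 0.19 and −0.11 without the 2 farthest cows, and −0.28 and −0.36 after removing slide means (adjusted permutation p = 0.125 and 0.0549). Both kinds of correlation rest on the scaling: when the arrays were divided by the median of their control features in place of the 75th percentile, r was 0.74 and 0.58, while r between the muscles was 0.35 for NOL6, 0.36 for Target1180 and 0.03 for IMP3 (adjusted permutation p = 0.0600, 0.0600 and 0.891), none past the threshold of 0.05. That control median was near background, from 1.73 to 6.36 units over the arrays, and dividing by it moves all probes of an array together.

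**Figure D4:**
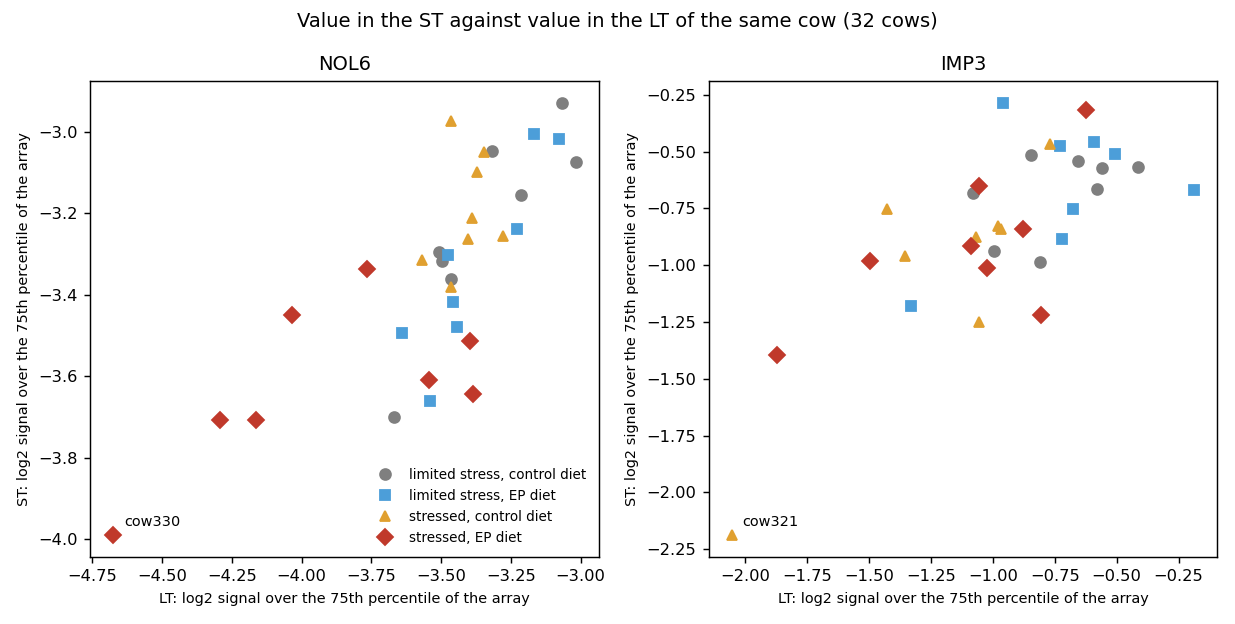
Each point is 1 of 32 cows, with its LT value on the horizontal and its ST value on the vertical axis (log2 signal over the 75th percentile of the array), for NOL6 and IMP3; symbols give the group. The cow labelled cow330 is lowest for NOL6 and cow321 lowest for IMP3 in both muscles.

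Between the muscles, NOL6 was lower in the LT than in the ST, with a log2 difference of −0.17 (SE 0.0617, interval −0.29 to −0.04, a ratio of 0.891, limma adjusted p = 0.020). It was the 1 transcript of the 3 called lower, in a comparison where 29.3% of the 4327 transcripts were called lower and 22% higher, so a call here is common. The LT arrays of stressed cows, on which NOL6 was chosen, enter this difference. Its mean per cow was −0.29 (EP diet) and −0.22 (control diet) in stressed cows, and −0.05 and −0.11 with limited stress. Of the 5 Target1180 probes 2 passed the test and the differences ran from −0.03 to −0.20. IMP3 had −0.13 (interval −0.30 to 0.05, limma adjusted p = 0.226). With the cow as a block in limma IMP3 was called too, at the same difference with an adjusted p of 0.0770, where 34.7% of the transcripts were called lower.

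Each slide held 1 muscle, so muscle and slide cannot be told apart except as a random slide effect, with which the NOL6 adjusted p in limma was 0.0839. With the control features as the scale, which moves the median of all probes by 0.19, the muscle difference was 0.02 for NOL6 and 0.06 for IMP3, so its direction rests on the scaling.

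Since the LT and the ST of a cow are a pair, the LT value minus the ST value was also taken per cow. For NOL6 it ranged from −0.69 to 0.26 in the stressed cows on the EP diet (median −0.44, LT lower in 5 of 8 cows) and from −0.49 to −0.02 in those on the control diet (median −0.22, LT lower in 8 of 8). With limited stress it ranged from −0.17 to 0.12 on the EP diet (median −0.05) and from −0.27 to 0.06 on the control diet (median −0.12). The 4 groups overlapped.

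The stress difference of the LT minus that of the ST holds the LT difference that the transcripts were chosen on, and is given as a description. It was −0.17 for NOL6 (SE 0.0902 with the cow as a replicate block), −0.13 for IMP3 and −0.09 to −0.22 for the Target1180 probes. Without the block limma called none of the 4230 transcripts, and an unadjusted p under 0.05 was found for 2.71% of the probes. When cows were a block, 0.0946% of the transcripts were called higher and 0.0473% lower, none of the 3 among them, and 7.1% of the probes had such a p. The diet difference of the LT minus that of the ST, which holds the chosen ST difference, was −0.01 for NOL6 and −0.00 for IMP3, with no transcript called in limma and an unadjusted p under 0.05 for 0.478% of the probes. The interaction of stress and diet differed between the muscles by −0.13 for NOL6 (interval −0.62 to 0.37), again with no call in limma and with an unadjusted p under 0.05 for 0.449% of the probes.

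Few other genes of ribosome production were on the array, and few were called. Of 231 gene names listed for small and large subunit assembly, small nucleolar RNA particles, RNA polymerase I, rRNA nucleases and other nucleolar proteins, 12 were on the array, as 21 transcripts with the 3 above. For stress in the LT, 0 of the 21 were called higher and 1, IMP3, lower, beside 2.2% and 1.53% of all transcripts, and IMP3 was chosen on this contrast. For stress in the ST none of the 21 was called, beside 1.48% higher and 2.12% lower of all transcripts. Leaving out the 3 transcripts and Target844 and Target845, which share the bases of IMP3, 16 transcripts are left. They come from fewer genes, as some genes are read by more than 1 transcript. Of these 14 had a stress difference below 0 in the LT, with a median of −0.08 beside −0.05 over all 4311 transcripts. In the ST 9 of the 16 were below 0, and the median was −0.01 beside −0.06. The share of all transcripts below 0 is not given here, and their medians were below 0 too, so nothing is read from these counts.

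With the EP diet alone, 15 of the 16 had a stress difference below 0 in each muscle, and their medians were −0.11 (LT) and −0.05 (ST) beside −0.04 and −0.05 over all transcripts. With the control diet it was 11 (LT) and 6 (ST), with medians of −0.04 and 0.02 beside −0.06 and −0.07. Nothing is read from these counts either, for the same reason.

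**Figure D5:**
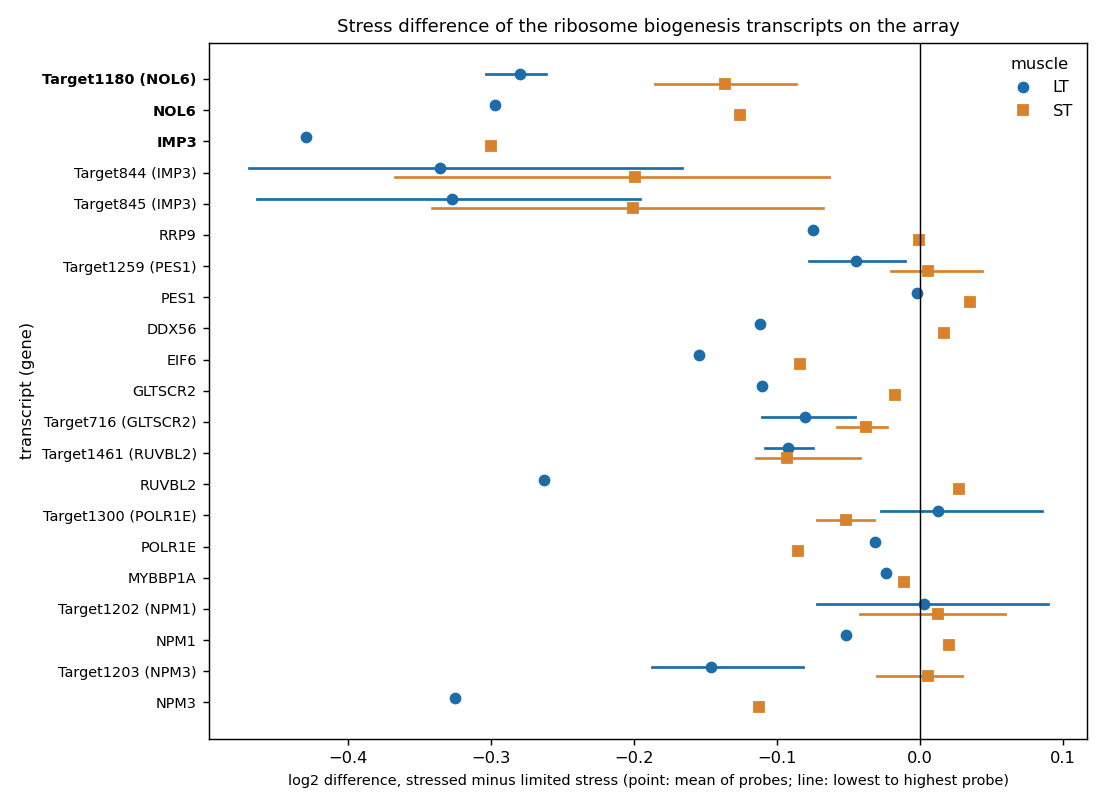
The horizontal axis is the log2 difference between stressed cows and cows with limited stress for the 21 ribosome biogenesis transcripts of the array in the LT and the ST (by symbol); points are means over the probes of a transcript and lines run from its lowest to its highest probe. NOL6, Target1180 and IMP3 are in bold, and IMP3 has the lowest point of the 21 in the LT, at −0.43, and in the ST, at −0.30. IMP3 was chosen on its LT difference and the ST is from the same cows, so its rank is a description.

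The custom sets that share bases with IMP3 had stress differences of the same sign. Target844 had a mean of −0.34 in the LT, with probes from −0.17 to −0.47, and Target845 had a mean of −0.33. In the ST the means were −0.20 and −0.20. Not all of their probes followed IMP3. Within groups the correlation with the IMP3 probe was 0.96 to 0.97 for the probes that share its 49 bases, but for CUST_7664 it was 0.14 and 0.18 in the LT and the ST, and for CUST_7661 it was 0.23 and 0.32.

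RRP9, which like IMP3 belongs to the U3 particle, had a stress difference of −0.07 in the LT (limma adjusted p = 0.745) and −0.00 in the ST (limma adjusted p = 0.997). Its interaction of stress and diet was −0.17 and −0.18 (limma adjusted p = 0.9999 and 0.971). The RRP9 probe was dim, with a median signal of 71.0 units in the LT and 66.0 units in the ST.

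In the comparison of the muscles 4 of the 21 transcripts were called higher and 4 lower in the LT, beside the 22% and 29.3% of all transcripts. The RUVBL2 probe, for an ATPase that helps to assemble small nucleolar RNA particles, had −1.17 (limma adjusted p = 1.28e-06), whereas the custom set Target1461, which shares bases with it, had 0.23 and was called higher, so these probes disagree. Target1202, with bases of the nucleolar chaperone NPM1, had 0.13 and Target1203, with bases of its relative NPM3, had 0.35, and both were called higher. For the interaction of stress and diet and for diet in the LT, none of the 21 was called. For diet in the ST none was called without a block, but with the slide as a block NOL6 and Target1180 were called lower, as the only ones of all transcripts (0.0471%), in the contrast they were chosen on.

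The transcripts whose values moved most like those of NOL6 over the 64 arrays, with each muscle centred, were PDE6D (r = 0.68), DV782071 (0.63), TC345039 (0.61), SLC35A1 (0.58) and FBXO15 (0.57), among 4079 transcripts compared and with Target1180 left out. For IMP3 they were Target845 (0.85) and Target844 (0.82), which share its bases, then MRPS17 (0.77), EBP (0.75) and Target555 (0.73), which shares bases with EBP. All these values come from the same arrays and carry what is common to an array.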

How the data were processed

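Expression was measured in the LT and ST of 32 cows on 64 single-colour arrays. The deposited intensities came from Agilent Feature Extraction, by which the authors subtracted background and removed spatial trends without log or scaling between arrays. The deposited table of the series holds the same intensities. The methods scale to control probes, but the 536 control features of the files had a median of 3.24 units, near background, so each array was divided by the 75th percentile of its other spots and log2 was taken. Outlier spots were left out (1 of CUST_4763 in the LT and 1 of CUST_4764 in the ST).

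A probe entered the fit of a muscle if 11 or more of its 32 arrays had it well above background. Fits were made with limma 3.58.1 and statmod 1.5.0 under R 4.3.3. A model of 4 groups was fitted per muscle, and one of 8 groups over both. All p-values are two-sided, with Benjamini-Hochberg adjustment over the probes of a comparison. The scripts were tested on simulated data. Correlations used 100000 resamples (scipy 1.17.1), and 1e-05 is the smallest p these can give. The same cow number in the labels marks LT and ST of one cow, and the consensus correlation within a cow was 0.40.

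The 3 transcripts, the gene lists and the tests were chosen with earlier results of these data known. Named are the 3 transcripts, all tested genes of the SSU processome list, called pathway transcripts with the smallest adjusted p (at most 5 per comparison), and the 5 transcripts most like NOL6 and IMP3. PDE6D and the others of the last kind were ranked by r. Custom sets took a name from at least 25 shared bases. Alternatives were the scaling, background correction, filter, source table, transcript means, and slide, scan day or cow as a block. The slaughters ran over a period of 16 weeks, and the model of the authors held a period factor. The labels give no slaughter day or period for a cow, so neither could be used here.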

Additional observations from a re-analysis of the deposited data

Results flagged for a closer look

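The gap of the extreme cow to its neighbour was compared with the range of its group in 24 groups of 8 cows, and chance marks about 1 group in 20. In the ST of stressed cows on the control diet, IMP3 was −2.19 in cow321, below the next cow at −1.25, a gap of 0.545 of the range that is past the 95% limit for 8 samples. In the same group and muscle, the mean of the Target1180 probes was −3.73 in the same cow, the highest value, with the next cow at −3.98 and a gap of 0.543 of the range. In the LT the IMP3 value of this cow was again the lowest, at −2.05, with a gap under that limit.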

How the results depend on the processing

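The number of the 3 transcripts called for stress in the LT was 1 and became 0 with the control feature median as the scale (0.209% of all transcripts called lower), 2 with scan day as a block (2.69%) and 3 with transcript means (2.51%) or with the cow as a replicate block (3.02%). For diet in the ST it was 0 and became 2 with slide or scan day as a block (0.0471% each), where NOL6 had −0.37 with the slide. For the muscle difference it was 1 and became 0 with the control feature median (5.78% lower), normexp and quantile (26.8%), no scaling (13.8%) or scan day (20%), and 2 with transcript means (32.8%), with the cow as a replicate block (34.7%), or without slide 9 (26.2%). The pairing by cow changed no other count of the 3. For stress in the ST, diet in the LT, the interaction of stress and diet in each muscle, muscle by stress and muscle by diet the counts were 0 under every alternative run. The control feature median moved the median of all probes by −0.18 for stress in the LT, −0.31 for the interaction in the LT and 0.19 between muscles, and no scaling moved it by 0.15 for stress in the ST.

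The following differences changed sign. For stress in the ST, NOL6 had 0.0234 with no scaling and 0.0077 with slide, and Target1180 0.0103, 0.0035 and, with scan day, 0.0007. For diet, IMP3 had −0.0031 in the LT with slide, and in the ST −0.0303 with no scaling and −0.0154 without cow321. For the interaction, IMP3 had −0.23 (control feature median) and −0.0472 (without cow321) in the LT, and in the ST −0.0990 with slide, −0.0543 with scan day, −0.0944 without cow321 and −0.20 without slide 9. For the muscle difference, the control feature median gave 0.0206 for NOL6, 0.0754 for Target1180 and 0.0622 for IMP3, and no scaling 0.0155 for Target1180 and 0.0020 for IMP3. For muscle by diet, NOL6 had 0.12 (control feature median), 0.0372 (normexp and quantile), 0.0894 (no scaling), 0.0181 (slide), 0.0169 (scan day), 0.0016 (cow as a replicate block with slide as a random block), 0.0223 (without cow330) and 0.0047 (without slide 9), Target1180 had −0.0188 without slide 9, and IMP3 had 0.13 (control feature median), 0.0942 (no scaling), 0.0140 (without cow330), 0.0216 (without cow321) and 0.0589 (without slide 9). The correlation of NOL6 with IMP3 was −0.28 in the LT with slide means removed and 0.58 in the ST with the control feature median. The causes were not tested. Leaving out cow330, cow321 or slide 9 was chosen after seeing the data.

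The NOL6 interactions of −0.46 (SE 0.197) and −0.33 (SE 0.148) did not pass the adjustment over all probes, and they use the arrays that NOL6 was chosen on. A single probe reads NOL6 and another IMP3, and nothing here measures rRNA, protein or ribosomes.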
